A study of Homo sapiens with 16 samples.

Results

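ATF3 and JUNB were mapped by chromatin immunoprecipitation and sequencing in TGFB1-treated A375 cells, an established human melanoma line, and their peak lists were set against each other. On chromosomes 1 to 22 and X the ATF3 list held 62483 peaks and the JUNB list 64146, together 126629 of the 399028 peaks in the 10 lists of the series. An ATF3 peak that shared at least 1 bp with a JUNB peak was a site of both factors, and the remaining peaks were ATF3-alone or JUNB-alone sites. This gave 23707 joined regions with both factors, 38416 with ATF3 alone and 40143 with JUNB alone. Cells had been deprived of serum for 2 h and were then held for 2 h in 10 ng/mL recombinant human TGFB1. Vehicle cells got the solvent instead, 4 mM HCl containing 1 mg/mL BSA. ATF3 and JUNB libraries shared an experiment date, H3K27ac and SMAD2/3 shared another, and MITF had a date of its own, so for comparisons across these sets antibody and date cannot be told apart. The submitters mention a technical triplicate, yet only 1 library per antibody and treatment is listed, so there was no replicate spread and no test was made.

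ATF3 and JUNB are basic leucine zipper proteins, which bind DNA only as pairs. JUNB pairs with FOS proteins to form AP-1, which recognises the AP-1 element, while ATF3 pairs with itself, with JUN proteins or with CEBP proteins and can recognise the cyclic AMP response element or a composite CEBP-ATF element. ATF3 is known as a gene of the integrated stress response, the program that cells start when protein folding or amino acid supply fails, and AP-1 is known in melanoma for invasion genes and for acting with SMAD proteins after TGFB1.

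Sequence was at hand for the starts of 15812 of 19974 protein-coding genes, as 300-base windows reaching from 250 bases before to 50 bases after the start (RefSeq, GRCh38.p14). For the other 4162 genes the strand was not known here, and both ends of the gene were counted as starts throughout. The stretches below, all upstream of the start and written 5′ to 3′ along the gene, were chosen because the capitals, an exact match to 1 of the searched elements, lay within 20 bp of a summit. The first pair shows the composite element, TGATGCAA or on the other strand TTGCATCA, at starts with ATF3 alone: BCAT1, which transfers amino groups of branched-chain amino acids (chr12:24949106-24949185, minus strand), with an ATF3 fold enrichment of 57.3, and PLEKHH3 (chr17:42677157-42677236, minus strand), with 61.4. Fold enrichments throughout are the authors' deposited values, reads at the summit over the local background, and describe a peak within its own list. Strength is ranked by the -log10 p that the peak caller gave it, which grows with sequencing depth, so equal values in the 2 lists are not equal binding.

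BCAT1: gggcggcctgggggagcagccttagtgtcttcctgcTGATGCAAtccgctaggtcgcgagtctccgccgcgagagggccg
PLEKHH3: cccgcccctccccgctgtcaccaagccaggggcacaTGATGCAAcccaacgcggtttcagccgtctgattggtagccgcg

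The composite element also lay at starts where both factors were listed but ATF3 stood far higher in its list. HERPUD1, a gene of protein disposal at the endoplasmic reticulum (chr16:56931930-56932009, plus strand), had an ATF3 fold of 72.8 and a JUNB fold of 7.45. CHAC1, which breaks down glutathione (chr15:40953226-40953305, plus strand), had 76.9 and 3.65.

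HERPUD1: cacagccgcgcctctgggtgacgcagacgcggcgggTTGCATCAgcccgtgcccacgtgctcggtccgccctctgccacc
CHAC1: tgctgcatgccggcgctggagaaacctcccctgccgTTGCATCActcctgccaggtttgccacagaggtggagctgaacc

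The cyclic AMP response element, TGACGTCA, reads the same on both strands. It lay under the ATF3-alone summit at SLC25A25, a mitochondrial carrier gene (chr9:128098271-128098350, plus strand; ATF3 fold 15.0), and under the shared site at DUSP1, a phosphatase gene that dampens MAP kinases (chr5:172771277-172771356, minus strand; ATF3 fold 24.2, JUNB fold 5.27).

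SLC25A25: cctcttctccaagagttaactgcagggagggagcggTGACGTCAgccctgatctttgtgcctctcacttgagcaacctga
DUSP1: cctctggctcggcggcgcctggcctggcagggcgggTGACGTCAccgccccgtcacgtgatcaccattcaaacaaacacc

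The AP-1 element, TGAGTCA or TGACTCA on the other strand, lay under the JUNB summit of the shared site at NDST1, a heparan sulfate enzyme gene (chr5:150497695-150497774, plus strand; JUNB fold 18.1), and under JUNB-alone summits at CALHM3, a channel gene (chr10:103479274-103479353, minus strand; 14.2), and TOR4A (chr9:137277640-137277719, plus strand; 15.6).

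NDST1: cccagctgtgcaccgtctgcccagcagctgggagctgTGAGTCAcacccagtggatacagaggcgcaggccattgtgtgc
CALHM3: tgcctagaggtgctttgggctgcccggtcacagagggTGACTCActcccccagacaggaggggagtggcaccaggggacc
TOR4A: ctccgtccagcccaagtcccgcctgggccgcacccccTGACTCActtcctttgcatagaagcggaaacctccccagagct

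The same contrast held in the counts over windows. The AP-1 element was in 108 of 1174 windows with a JUNB-alone summit (9.20%, 95% Wilson interval 7.68 to 11.0) and in 106 of 997 windows with both factors (10.6%, 8.87 to 12.7), but in only 7 of 559 with an ATF3-alone summit (1.25%, 0.608 to 2.56), below the 3.67% of all 15812 windows. The cyclic AMP response element went the other way, in 59 of 559 ATF3-alone windows (10.6%, 8.27 to 13.4) and 137 of 997 windows with both (13.7%, 11.7 to 16.0), against 29 of 1174 JUNB-alone windows (2.47%, 1.73 to 3.53) and 2.59% of all windows. The composite element was in 29 of 559 ATF3-alone windows (5.19%, 3.64 to 7.35), in 15 of 997 with both (1.5%, 0.914 to 2.47), and in 0 of 1174 JUNB-alone windows (upper Wilson bound 0.326%), with 0.670% over all windows. The difference between ATF3-alone and JUNB-alone windows was -7.95 percentage points for the AP-1 element (95% Newcombe interval -9.85 to -5.94), 8.08 for the cyclic AMP response element (5.57 to 11.0) and 5.19 for the composite (3.60 to 7.35). Among the 20000 strongest peaks of each list the 3 differences were -39.6, 17.2 and 8.64 points, over 359 and 210 windows. All intervals cover counting error only, and a match is a description of letters, not a binding site.

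3 other motifs served as a comparison. The E-box, CACGTG, was in 11.3% of ATF3-alone, 11.7% of JUNB-alone and 12.9% of both windows and 8.87% of all windows, and the differences between the classes spanned 0 (-0.399 points for ATF3 alone minus JUNB alone, -3.47 to 2.96). The GC box, GGGCGG or CCGCCC, was in 66.7%, 69.8% and 70.3% of the class windows and 58.5% of all windows, again with intervals of the difference that spanned 0 (-3.04 points, -7.79 to 1.60). The CCAAT box, CCAAT or ATTGG, was commoner with ATF3 alone (43.3%) than with JUNB alone (32.7%, difference 10.6 points, 5.70 to 15.5) or in all windows (36.3%). None of the 6 searched motifs contains another. Median GC content was 63% in ATF3-alone, 66.3% in JUNB-alone and 65% in both windows, against 62.7% in all.

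**Figure D1:**
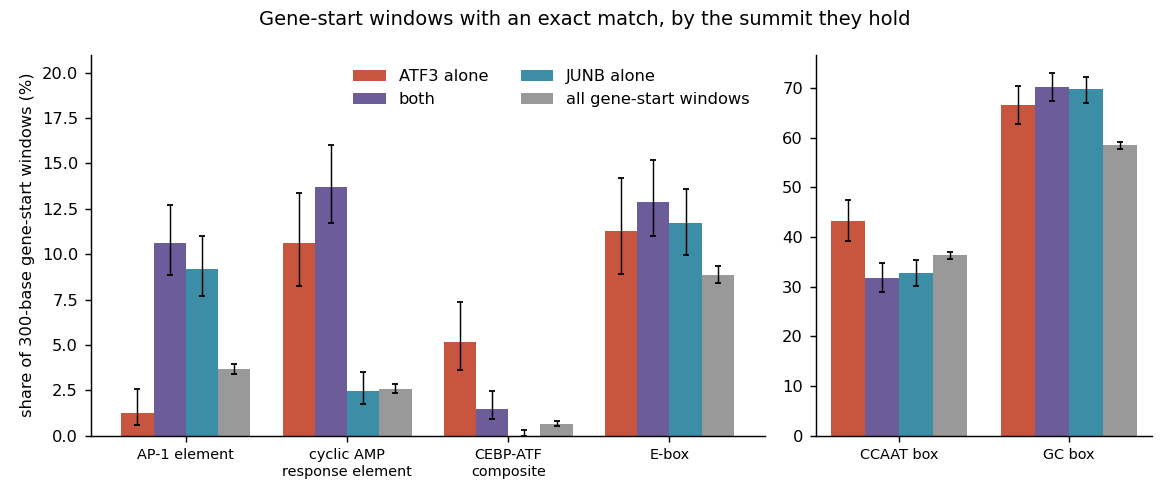
Share of 300-base gene-start windows (vertical axes, percent; the right panel has its own scale) with an exact match to each motif, for windows that hold a summit of ATF3 alone, of both factors or of JUNB alone, and for all windows; bars are 95% Wilson intervals. The AP-1 element stood at 1.25% with ATF3 alone against 9.20% with JUNB alone, and the composite element at 5.19% against 0.

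Among windows with a match, the composite and cyclic AMP response elements lay close to ATF3-alone summits and the AP-1 element close to JUNB-alone summits. The CCAAT box also differed between the alone classes, but its nearest match lay farther off. The median was 59.5 bp from the summit with ATF3 alone and 76.5 bp with JUNB alone. In ATF3-alone windows the median distance from summit to nearest match was 10.5 bp for the composite element and 16.5 bp for the cyclic AMP response element, against 53.5 bp for the GC box and 57.5 bp for the E-box. In JUNB-alone windows it was 21 bp for the AP-1 element but 37.5 bp for the cyclic AMP response element and 52.5 bp for the GC box. Among shared windows with a match, the nearer element by median differed between the JUNB and ATF3 summits. JUNB's summit lay a median of 16.5 bp from the AP-1 element (102 windows) and 31.5 bp from the cyclic AMP response element (115). ATF3's summit lay 35 bp (88 windows) and 20.5 bp (131) from them. How far these sets of windows coincide was not tested. The composite element was 10.5 bp from ATF3's summit in 15 shared windows and 52.0 bp from JUNB's in 10.

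**Figure D2:**
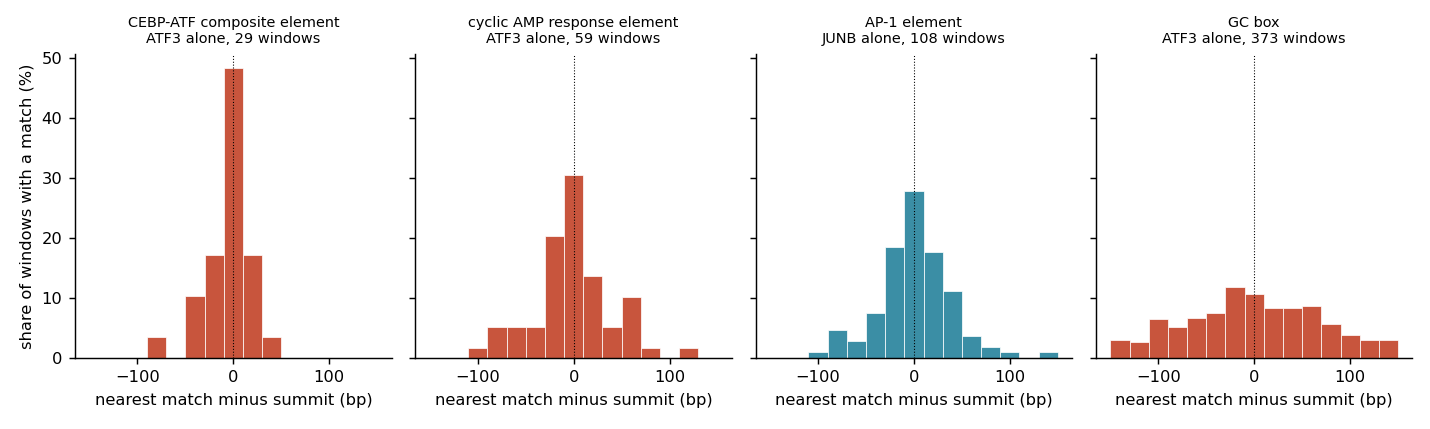
Position of the summit relative to the nearest match (horizontal axis, bp along the gene, in bins of 20 bp) as a share of the windows with a match (vertical axis, percent). Positive values have the match upstream of the summit, and the axis label states the opposite sign. Composite, cyclic AMP response and AP-1 element matches gather at the summit, with medians of 10.5, 16.5 and 21 bp, while GC box matches are spread over the window (53.5 bp).

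The share of windows with a match also tended to be higher among strong peaks, though it did not always rise steadily. The AP-1 element was in 11 of the 391 JUNB-alone windows with the lowest -log10 p (2.81%) and in 75 of the 392 with the highest (19.1%). In shared windows ordered by JUNB it went from 2.57% of the weakest 272 to 30.4% of the strongest 273. The composite element was in 2.69% of the weakest 186, 1.61% of the middle 186 and 11.2% of the strongest 187 ATF3-alone windows. In shared windows ordered by ATF3 its 15 matches were all among the strongest 277. The cyclic AMP response element rose from 5.43% to 26.0% in shared windows ordered by ATF3, but not steadily in ATF3-alone windows (4.84%, 16.1% and 10.7%). The composite windows with the highest ATF3 -log10 p were those of BCAT1 (401), TARS1, a threonyl-tRNA synthetase gene (338), and PLEKHH3 (297).

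Fewer peaks were shared than stood alone in each list. In all, 24067 ATF3 peaks (38.5%, 38.1 to 38.9) overlapped a JUNB peak and 24003 JUNB peaks (37.4%, 37.0 to 37.8) overlapped an ATF3 peak. With a reciprocal overlap of 50% the shares were 27.6% and 26.9%, and within 500 bp they were 42.7% and 42.2%. Few peaks sat near the border of the rule, as 232 ATF3-alone peaks (0.604%) and 244 JUNB-alone peaks (0.608%) lay within 50 bp of the other factor without touching it. Within 1 kb of the other factor lay 11.2% and 13.0% of the alone peaks. Where the lists overlapped, the summits were a median of 39 bp apart, and 59.0% of the ATF3 peaks had their summit within 50 bp of JUNB's. The fold enrichments of the paired peaks had a rank correlation of 0.268 over 24067 pairs, given as a description, since pairs share the chromatin and the cells.

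Sharing was lopsided among strong peaks. Of the strongest 10% of each list by -log10 p, 55.4% of 6257 ATF3 peaks overlapped JUNB while 86.7% of 6417 JUNB peaks overlapped ATF3. Among the weakest 10% the shares were 19.9% and 8.78%. Within the lists, 760 ATF3-alone and 99 JUNB-alone peaks reached a -log10 p of 100, and 1376 ATF3 peaks and 1704 JUNB peaks at shared sites did. The median ATF3 fold was 6.32 at shared and 5.40 at ATF3-alone sites, and the highest was 111 and 97.5. JUNB's median was 8.17 at shared and 4.55 at JUNB-alone sites, with highest values of 61.6 and 37.3. Shared peaks were also wider, with medians of 273 bp (ATF3) and 297 bp (JUNB) against 210 bp and 200 bp for the alone peaks, and the part of width in the overlaps given here was not tested.

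The libraries differed in depth. The deposited fold and p-value of a peak give back the reads at its summit, and all were whole numbers within 0.01 reads. The median summit held 18 reads for ATF3 and 24 for JUNB. The lowest local background, 1.59 and 2.54 reads, corresponds to about 28.1 M and 47.7 M reads if the genome is taken as 2.7 Gb and the shortest peak (153 and 144 bp) as the fragment length. The part of this difference in the number of peaks called was not tested. As a check of the cell label, H3K27ac lay at the start of 6 of 9 melanoma markers, including SOX10, PMEL and MITF but not MLANA, TYR or DCT, and of 2 of 18 markers of other cell types (CD3E and GFAP). Over all protein-coding genes the share was 64.8%, so the melanoma count was near that share and does not by itself speak to the cell type.

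Acetylation of histone H3 at lysine 27, H3K27ac, marks active promoters and enhancers. It covered 48.8% of ATF3 peaks with JUNB (48.2 to 49.5) and 50.0% of JUNB peaks with ATF3 (49.4 to 50.7), 28.1% of JUNB-alone peaks (27.7 to 28.6) and 13.0% of ATF3-alone peaks (12.7 to 13.4). JUNB-alone sites were thus acetylated 15.1 percentage points more often than ATF3-alone sites (14.5 to 15.6), and ATF3 peaks with JUNB 35.8 points more often than those without (35.1 to 36.5). JUNB peaks with ATF3 exceeded JUNB-alone peaks by 21.9 points (21.1 to 22.7). Counted by whether the summit itself lay inside an H3K27ac peak, the shares were 29.3%, 26.8%, 20.5% and 10.5%, for ATF3 peaks with JUNB, JUNB peaks with ATF3, JUNB alone and ATF3 alone, and the 3 differences were 10.0, 18.8 and 6.29 points. Away from gene starts the shares, in that order, were 44.8%, 46.1%, 21.6% and 9.25%, and within 1 kb of a start they were 91.3%, 92.1%, 87.9% and 77.2%. At the acetylated sites the H3K27ac fold had a median of 13.4 for ATF3 alone, 13.7 for JUNB alone, and 11.9 and 11.8 for the shared peaks, against 6.28 over all 80848 H3K27ac peaks. Each site took the H3K27ac peak of highest -log10 p that it overlapped, and a peak with several sites counted for each. These H3K27ac peaks had median widths from 1073 to 1222 bp, against 484 bp over all, and the part of width was not tested.

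Seen from the acetylated regions, 17.5% of H3K27ac peaks held a shared site, 10.6% JUNB alone, 4.14% ATF3 alone, 0.872% both factors apart and 66.8% neither. The 17615 H3K27ac peaks called with TGFB1 and not in vehicle cells held them less often (9.02%, 5.21% and 2.09% for shared, JUNB-alone and ATF3-alone sites) than the 63233 called in both (19.9%, 12.2% and 4.71%). Those called only with TGFB1 were also narrower, with a mean width of 376 bp where they held both factors against 1334 bp, and the part of width was not tested.

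The acetylated share differed with peak strength, and not in the same way in each class. In JUNB-alone peaks it went from 24.4% at a -log10 p under 10 through 28.7%, 36.5% and 52.9% to 65.7% at 100 or more (65 of 99). In JUNB peaks with ATF3 it was 46.5% under 10, lower at 38.3% from 10 to 20, then 47.4% from 20 to 50, 63.2% from 50 to 100 and 77.0% from 100 upwards. ATF3-alone peaks stayed between 10.8% and 14.5% up to a -log10 p of 100, and only the 760 beyond it reached 30.9% (27.7 to 34.3). Even there the gap to JUNB-alone peaks was 34.7 points (24.4 to 43.9). At the same strength, 58.2% of ATF3 peaks with JUNB were acetylated (55.6 to 60.8).

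**Figure D3:**
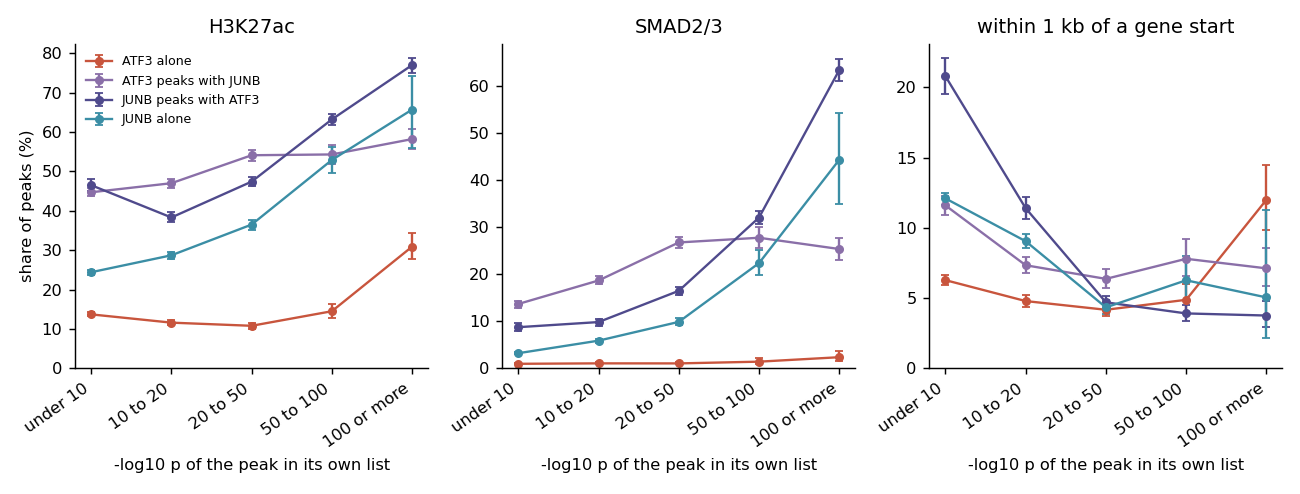
Share of peaks (vertical axes, percent, each panel with its own scale) that overlapped H3K27ac, overlapped SMAD2/3 or lay within 1 kb of a gene start, by the -log10 p of the peak in its own list (horizontal axis, 5 classes), for the 4 sets of peaks; bars are 95% Wilson intervals. ATF3-alone peaks stay lowest for H3K27ac and SMAD2/3 in every class, and the order of the start shares turns from 6.28% against 12.1% among the weakest to 12% against 5.05% among the strongest alone peaks.

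The share of peaks at gene starts differed between the alone classes in a direction that depended on peak strength. Over all peaks, 9.92% of JUNB-alone peaks (9.63 to 10.2) lay within 1 kb of the start of a protein-coding gene, against 5.60% of ATF3-alone peaks (5.37 to 5.83) and 8.62% and 8.64% of the shared peaks. JUNB alone minus ATF3 alone was 4.32 points (3.95 to 4.69). This direction turned among strong peaks, to -0.737 points at a fold of at least 6, -1.87 points among the 20000 strongest peaks of each list and -6.92 points at a -log10 p of at least 100. By strength, 12.1% of JUNB-alone peaks with a -log10 p under 10 lay at starts, 4.34% of those from 20 to 50 and 5.05% of those from 100. ATF3-alone peaks went from 6.28% through 4.17% to 12% (91 of 760). ATF3-alone peaks lay outside genes a little more often (52.5%) than JUNB-alone (46.8%) or shared ATF3 peaks (49.3%), and 4.12% of them, against 0.693% and 1.31%, fell in a chromosome's longest stretch without protein-coding genes.

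SMAD2/3, the receptor-activated carriers of the TGFB1 signal, were listed most often at shared sites and least often at ATF3-alone sites. The shares were 19.7% (ATF3 peaks with JUNB), 19.9% (JUNB peaks with ATF3), 5.52% (JUNB alone) and 1.05% (ATF3 alone), so that JUNB alone exceeded ATF3 alone by 4.46 points (4.22 to 4.71), and by 14.5 points among the 20000 strongest peaks of each list. At a -log10 p of 100 or more, SMAD2/3 lay at 63.5% of JUNB peaks with ATF3, 44.4% of JUNB-alone peaks (44 of 99), 25.4% of ATF3 peaks with JUNB and 2.37% of ATF3-alone peaks (18 of 760). MITF, the master regulator of pigment cells, showed the same order at a lower level, with 6.54% and 6.73% of shared peaks, 2.23% of JUNB-alone and 0.612% of ATF3-alone peaks. JUNB alone exceeded ATF3 alone by 1.62 points there (1.46 to 1.79), and by 3.12 among the 20000 strongest.

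**Figure D4:**
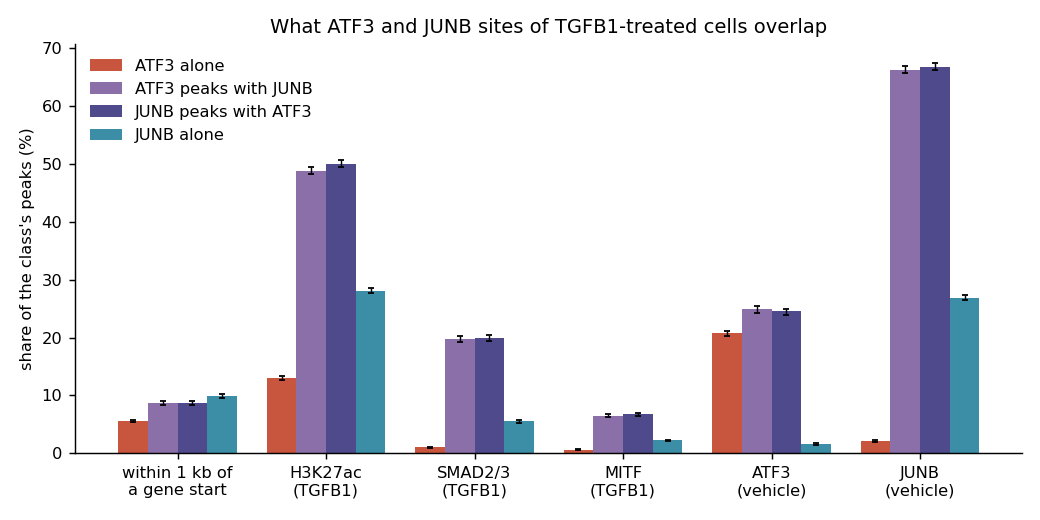
Share of the peaks of each class (vertical axis, percent, with 95% Wilson intervals) that lay within 1 kb of a gene start or overlapped H3K27ac, SMAD2/3 or MITF of TGFB1-treated cells, or ATF3 or JUNB of vehicle cells. The shared sets lead for H3K27ac, SMAD2/3, MITF and vehicle JUNB, with 66.2% of ATF3 peaks with JUNB already in the vehicle JUNB list against 2.18% of ATF3-alone peaks.

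In vehicle cells, too, the alone sites of one factor were rarely listed for the other. Vehicle JUNB was listed at 66.2% of ATF3 peaks with JUNB (65.6 to 66.8), 26.8% of JUNB-alone peaks and 2.18% of ATF3-alone peaks (2.04 to 2.33). Vehicle ATF3 was listed at 24.9% of ATF3 peaks with JUNB, 20.7% of ATF3-alone peaks and 1.62% of JUNB-alone peaks (1.5 to 1.75). The 2 low shares reached 10.3% and 5.39% among the 20000 strongest peaks and 10.7% and 4.88% with a reciprocal overlap of 50%, where peaks whose partner fell short of the rule join the alone classes. Strong peaks were listed in both treatments, as 98.4% of the ATF3-alone and 99.0% of the JUNB-alone peaks at a -log10 p from 100 upwards were in the vehicle list of the same factor.

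Single sites show the classes at their extremes. The 8 strongest shared sites, ranked over both lists, lay in or beside RNF212, ST3GAL3, SMIM21, FNDC3B, RNF223, PI4KB, FBXL13 and STK40. Their ATF3 folds ran from 51.1 to 86.9 and their JUNB folds from 20.7 to 41.8, all 8 were acetylated in both treatments, and SMAD2/3 was listed at all but that of STK40. The shared site 12.4 kb from RNF212 (chr4:1043625-1044161 in the ATF3 list) held 295 ATF3 and 256 JUNB reads at its summits, which were 13 bp apart, and MITF was listed there too. At acetylated gene starts the strongest shared sites after that of STK40 were at MYEOV (ATF3 65.4, JUNB 26.1; the peaks lay at the end with the higher coordinate), TAGLN2, an actin-binding transgelin gene (28.3 and 33.8), TNFRSF12A, the receptor of TWEAK (25.9 and 44.8), ANKRD1, a target of YAP (28.9 and 29.0), and DAGLB, a lipase gene (32.6 and 19.3). The ANKRD1 site was the one of the 6 without H3K27ac in vehicle cells.

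The 8 strongest ATF3-alone sites fell into 2 sets of 4. Of these 8, 4 had neither H3K27ac nor SMAD2/3 nor MITF. They lay 40.0 kb from SPMIP10 (fold 87.3), 94.9 kb from SHISA3 (84.6) and inside SLC24A3 (97.5) and PRELID2 (84.2). Yet their folds were among the highest of the list and all 4 were in the vehicle ATF3 list. The other 4 were acetylated in both treatments: 9.23 kb from CDKN1A, the cell cycle inhibitor p21 (95.8), and at the starts of SLC7A11, the cystine importer (90, with 263 reads at the summit), ZFAND3 (93.7) and BCAT1 (57.3). The next acetylated starts with ATF3 alone were those of SLC1A4, a neutral amino acid transporter gene (79.0), TARS1 (57.5) and TIMM44, of mitochondrial protein import (43.1). SLC7A11 and SLC1A4 had a vehicle JUNB peak, and SLC1A4 and TARS1 a SMAD2/3 peak.

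The 8 strongest JUNB-alone sites lay in or beside TUBA1C (fold 26.2), ERBIN (27.7), HTRA3 (18.9), CAV2 (37.3), SLC4A11 (30.4), PGM1 (22.6), PEBP4 (30.3) and NOS1 (28.0). All 8 were in the vehicle JUNB list, 6 were acetylated and 5 held SMAD2/3. ERBIN encodes a scaffold protein of epithelial junctions and CAV2 a caveolin, and their sites, 40.5 kb and 56.5 kb away, had H3K27ac with TGFB1 and not in vehicle. PGM1's site overlapped a vehicle ATF3 peak. The strongest acetylated starts with JUNB alone were at HDAC7, a histone deacetylase gene (20.4), ATP8B3 (25), VDR, the vitamin D receptor (16.8), EIF5, a translation initiation factor gene (25.4), UAP1L1 (15.6) and PPP1R18 (24). All 6 were acetylated in vehicle as well. Of the genes named at acetylated starts, MYEOV, TNFRSF12A, SLC7A11, VDR and UAP1L1 are among those with both ends counted, so that their sites may lie at the far end of the gene.

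Most protein-coding genes had a site somewhere near. Within the gene or 10 kb of it, 42.1% of 19974 genes had a shared site, 57.7% ATF3 alone and 63.0% JUNB alone, and 24.4% had all 3 kinds. The narrower window of 1 kb around the start gave 11.2% with a shared site, 11.2% with ATF3 alone and 20.4% with JUNB alone, and 21.1% had an ATF3 summit of any class and 29.2% a JUNB summit. Gene starts with a shared site and no other were acetylated in 95.9% of 1613 genes, those with JUNB alone in 92.6% of 3175, those with ATF3 alone in 85.5% of 1566 and those with none in 48.4% of 12549. The gene lists that follow are read against these shares. Folds of the 2 lists are not on 1 scale, so "higher" below refers to the percentile a peak holds in its own list. A summit at the far end of a gene counts as one at its start for the 4162 genes with both ends counted, and summits at other promoters of a gene are not counted at its start.

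The integrated stress and unfolded protein response genes stood at the top of the ATF3 list. Of 30 genes, 21 had an ATF3 summit within 1 kb of the start (21.1% of all genes) and 20 a JUNB summit (29.2%). 15 had an ATF3 peak of the strongest 10% there, against 2.41% of all genes, and 2 a JUNB peak of its strongest 10%, against 1.38%. Each gene's strongest ATF3 peak at the start had a median percentile of 98.5 within the ATF3 list, against 45.8 over the 4219 genes with such a peak, while JUNB's median was 40.4 against 38.3. By class, 14 (46.7%) had a shared site, 10 (33.3%) ATF3 alone and 10 (33.3%) JUNB alone at the start. The shares over all genes are 11.2%, 11.2% and 20.4%, and here and below a gene can count in several classes. H3K27ac lay at 28 of the 30 starts, against 64.8% of all genes. Because the list was drawn up with earlier results of these data known, the counts describe it and test nothing.

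Among its members, TRIB3, a pseudokinase that restrains ATF4 signalling, had an ATF3 fold of 82.3 and a JUNB fold of 3.53 at its start. HERPUD1 and CHAC1, whose composite elements are printed above, showed the same imbalance, as did GARS1, a glycyl-tRNA synthetase gene (73.1 and 10.5), and ASNS, asparagine synthetase (31.5 and 4.48). DDIT3, the CEBP-family factor CHOP, had 40.2 and 12.2, and PPP1R15B, which steers eIF2 dephosphorylation and whose start window also held the composite element, had 36.2 and 3.48. In all 7 the ATF3 peak was in the strongest 10% of its list, at percentiles from 98.3 to 100, while JUNB's percentile ran from 14.3 to 86.5.

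Other members had no JUNB peak at the start at all. Beside SLC7A11, which like SHMT2 and NUPR1 has both ends counted, these were PHGDH (ATF3 fold 54.1) and SHMT2 (44.6), enzymes of serine synthesis and of its use for one-carbon units, WARS1, a tryptophanyl-tRNA synthetase gene (49.7), VLDLR, a lipoprotein receptor gene (42.0), NUPR1, a stress-induced chromatin protein gene (22.6), and CTH, of cysteine synthesis (8.63). The opposite was also seen. ATF4, the central factor of the response (JUNB fold 5.48), HSPA5, the chaperone BiP (4.26), DNAJB9, its co-chaperone (3.45), CEBPB (3.66) and GDF15 (3.22) had a JUNB-alone summit and none of ATF3, all at percentiles below 50. PSAT1, the serine synthesis step after PHGDH, and PPP1R15A, the inducible partner of eIF2 phosphatase, were shared with the JUNB peak higher in its list (13.7 against ATF3's 6.25, and 10.7 against 6.84).

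**Figure D5:**
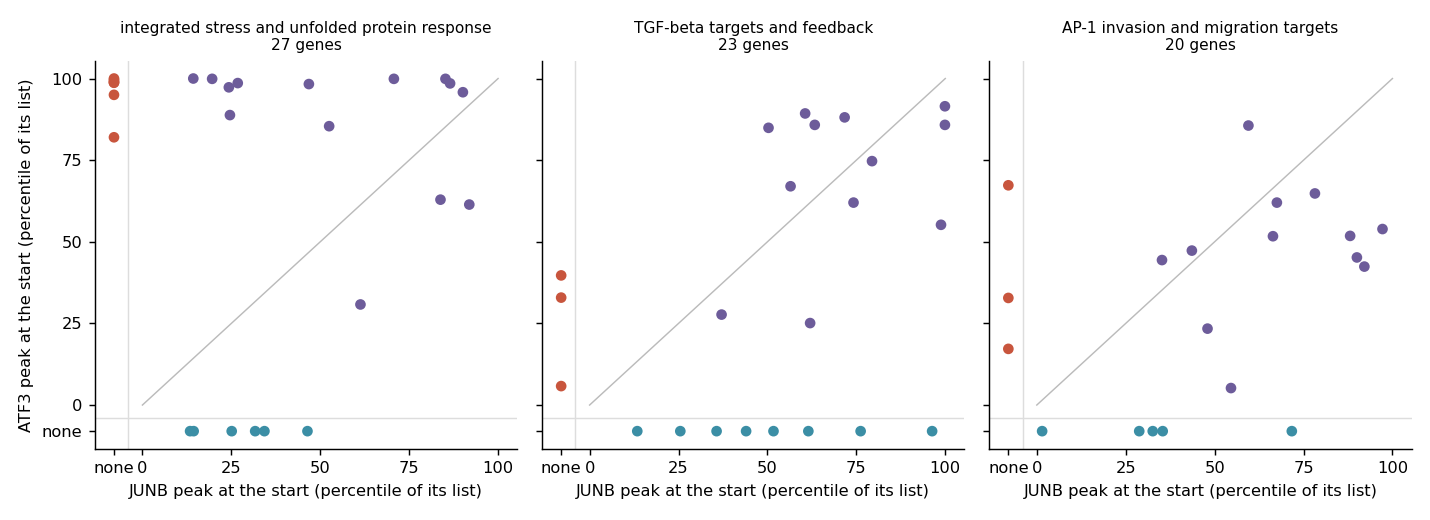
Strongest ATF3 peak (vertical axis) and strongest JUNB peak (horizontal axis) within 1 kb of the start of each gene of 3 lists, as a percentile of the factor's own list by -log10 p (either end of the gene where the strand was not known); points at "none" had no summit of that factor there, and the diagonal marks equal percentiles. The 21 stress response genes with an ATF3 peak had a median ATF3 percentile of 98.5, with PSAT1 (61.4), PPP1R15A (62.9) and ATF5 (30.8) among the lower ones. Others, such as ATF4 and HSPA5, are at "none" for ATF3. Of the 12 invasion genes with both, 3 lie above the diagonal.

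Of 35 TGF-beta targets and feedback genes, 20 had a JUNB summit at the start (57.1%, all genes 29.2%) and 15 an ATF3 summit (42.9%, all genes 21.1%). The median percentile of the strongest peak at the start was 67.0 for ATF3 and 61.8 for JUNB. 4 had a JUNB peak of the strongest 10% (11.4%, all genes 1.38%), among them COL7A1, TGFBR2 and LTBP3. An ATF3 peak of the strongest 10% lay at 1, COL7A1 (2.86%, near the 2.41% of all genes). COL7A1, anchoring fibril collagen, had a JUNB fold of 30.0 and an ATF3 fold of 11.7, and TGFBR2, the type II receptor, had 25.1 and 5.62. LTBP3, which holds latent TGF-beta in the matrix, had JUNB alone (18.5), as did CCN2, a matricellular growth factor (8.51), and SMAD3 (7.06) and SMAD7 (4.18), a signal carrier and its inhibitor. ATF3 stood higher in its list at ID1, an inhibitor of basic helix-loop-helix factors (ATF3 10.8, JUNB 5.03), SMAD6, an inhibitory SMAD (11.7 and 5.57), and SKIL, a SMAD corepressor whose window held a cyclic AMP response element (15.0 and 9.03). ID3 (5.12), SNAI2 (5.15) and PMEPA1 (3.73) had ATF3 alone, all below the 40th percentile of the ATF3 list.

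Invasion and migration genes known as AP-1 targets had shared sites at the start more often than either alone kind. Shared sites lay at 12 of 30 starts (40.0%, all genes 11.2%). This was not particular to the list, as housekeeping genes had 44.4%. The other lists ran from 0% for markers of other cell types to 55.6% for MAP kinase feedback and output genes. ATF3 alone lay at 4 (13.3%, all genes 11.2%) and JUNB alone at 10 (33.3%, all genes 20.4%). Within 10 kb, 25 of 30 had a shared site, against 42.1% of all genes. No member had an ATF3 peak of the strongest 10%, which is near the 2.41% of all genes. Such a JUNB peak lay at 3 (10.0%, all genes 1.38%): LAMB3, a laminin chain (JUNB 17.5, ATF3 5.41), TIMP1, a metalloproteinase inhibitor (17.3 and 5.78), and TNC, tenascin C (13.2 and 5.42). EZR, the membrane linker ezrin, had JUNB alone (9.03), with an AP-1 element in its window, and ANXA1, an annexin, ATF3 alone (8.10). Matrix and mesenchymal genes had JUNB at 10 of 24 starts (41.7%, all genes 29.2%) and ATF3 at 5 (20.8%, all genes 21.1%). VIM, the intermediate filament vimentin, had a JUNB fold of 40.3 against 12.6 for ATF3, whereas FN1, fibronectin, had ATF3 alone (30.4) and a cyclic AMP response element in its window.

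The factors' own family had sites of every class. At the starts of 20 AP-1 and ATF genes, 6 had a shared site, 4 ATF3 alone and 8 JUNB alone. These classes overlap, as a gene can count in several, and 10 genes had an ATF3 summit of any class and 12 a JUNB summit. Over all genes the shares are 11.2% for shared, 11.2% for ATF3-alone and 20.4% for JUNB-alone sites. JDP2, a repressor of AP-1 (ATF3 fold 42.4), JUND (25.5) and FOSB (17.1) had ATF3 and no JUNB, and JUN, the founding member, had 25 for ATF3 and 5.29 for JUNB. FOSL2 and FOSL1, both FOS proteins, stood higher for JUNB (16.9 and 15.1, against 8.22 and 5.84 for ATF3). JUNB's own start was shared (JUNB fold 5.50, ATF3 fold 3.06). ATF3's annotated start had no summit and no H3K27ac, while 6 shared and 3 ATF3-alone ATF3 summits lay in the gene or within 10 kb. CREM (7.34), ATF1 (5.27), CREB1 (5.08), ATF2 (5.08) and FOS (4.80) had JUNB alone, at or below the 61.8 percentile.

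For the lists that follow, the start shares over all genes are 21.1% for ATF3 and 29.2% for JUNB. For peaks of the strongest 10% they are 2.41% and 1.38%. MAP kinase feedback and output genes had ATF3 at 13 (72.2%) and JUNB at 14 (77.8%) of 18 starts. DUSP1 and SPRY4, a Sprouty inhibitor (ATF3 20.2, JUNB 4.11), were in the strongest 10% for ATF3 with MYEOV, whose peak is described above. Cell cycle and p53 genes had each factor at 12 of 24 starts (50.0%). PLK3, a stress-responsive kinase gene, was shared with ATF3 higher (45.9 and 9.88), and CCND2, a D-type cyclin, had ATF3 alone (24.9). Pigment cell genes had ATF3 at 4 (18.2%) and JUNB at 7 (31.8%) of 22 starts, near the shares over all genes, and MITF's start had ATF3 alone (5.91). Among neural crest and dedifferentiation genes ERBB3, a neuregulin receptor, stood out for JUNB (32.7, ATF3 8.13). PTGS2, the inducible cyclooxygenase, had ATF3 alone (19.1), and LIF, a cytokine of the IL6 family, a stronger JUNB (15.7, ATF3 5.79). Interferon and antigen presentation genes had ATF3 at 8 (30.8%) and JUNB at 9 (34.6%) of 26 starts and none in either strongest 10%. Lysosome and autophagy genes had 10 (50.0%) and 13 (65.0%) of 20. Housekeeping genes had 10 (55.6%) and 14 (77.8%) of 18, with RPL13A, a ribosomal protein gene, high for ATF3 (33.9 and 7.24). Markers of other cell types had no ATF3 summit at any of 18 starts and 3 with JUNB, EPCAM (7.18), KRT5 (6.52) and CD3E (4.44).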

How the data were processed

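The samples were 10 immunoprecipitated libraries with a peak list each, and 6 inputs that were not analysed here. Per the submitters' processing notes, the authors named Bowtie, GRCh38 and MACS2 2.0, and which input served as control is not given in the sources used here. The fold enrichment ratio, the -log10 p and the -log10 q of each peak are values deposited by the authors, and the lowest -log10 q (1.30 for ATF3, 1.31 for JUNB) is near a q threshold of 0.05. The deposited score was not used. Members and gene lists were chosen with earlier results of these data known. No interval was listed more than once. Peaks overlapped from 1 bp. Gene starts were strand-aware for 15812 protein-coding genes with a RefSeq window, and both ends were used for the other 4162, of which 715 are on chromosome 8. Motifs were searched as exact matches on both strands in these windows only. Sites were named by rule: the 8 strongest per class with a gene within 100 kb, the 6 strongest acetylated at a start, and up to 3 members per list and class; further list members were named after their values were seen. Overlap, distance and read recovery were tested on simulated data. Python 3.11.15, numpy 2.4.6, pandas 2.3.3, scipy 1.17.1 and matplotlib 3.10.9 were used. The alternatives changed the peak threshold, the overlap rule, the windows and the motif windows. One gene of the TGF-beta list is not reported here.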

Additional observations from a re-analysis of the deposited data

Results flagged for a closer look

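Peaks outside chromosomes 1 to 22 and X entered no comparison: 514 in the ATF3 list and 261 in the JUNB list. They are named here because they are a signal in data the comparisons did not use, and whether the inputs have the same signal was not tested.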

How the results depend on the processing

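With 1 library per factor the alternatives show dependence on settings, not replicate error, and depth limits how many weak peaks each list holds. No paired analysis was possible because each group had a single library and no result came from a test. A search for motifs within 50 bp of summits was not run, as it needs sequence beyond the gene starts. Restricting both lists moves a peak into an alone class when its partner falls below the limit, and the cause of each shift was otherwise not tested. Of 150 comparisons with an alternative over 19 results, 69 stayed within the interval or 1.5 times of the reported value, 78 moved and 3 reversed.

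In the sentences that follow, values are in the order: ATF3 peaks with JUNB and JUNB peaks with ATF3 (percent), start difference, H3K27ac differences, SMAD2/3 and MITF differences (percentage points), vehicle JUNB at ATF3-alone and vehicle ATF3 at JUNB-alone peaks (percent). At a -log10 q of at least 5 they were 40.4 and 38.7, 3.23, 18.7 (JUNB alone minus ATF3 alone) and 17.8 (JUNB with minus without ATF3), 6.64 and 1.98, 2.97 and 2.16. At a fold of at least 6 they were 34.1 and 37.0, -0.737, 23.2 and 14.3, 11.1 and 2.39, 6.53 and 3.54. For the 20000 strongest peaks of each list they were 32.2 and 32.3, -1.87, 27.8, 39.0 (ATF3 with minus without JUNB) and 11.4, 14.5 and 3.12, 10.3 and 5.39. With a reciprocal overlap of 50% they were 27.6 and 26.9, 3.67, 12.8, 26.5 and 15.0, 3.78 and 1.45, 10.7 and 4.88. Within 500 bp, 42.7 and 42.2 percent were shared, the H3K27ac differences with minus without the partner were 39.0 (ATF3) and 25.3 (JUNB), and vehicle JUNB was at 1.95%. With the summit inside the partner peak, 34.9 and 34.1 percent were shared, the H3K27ac differences were 14.3, 33.3 and 20, and the vehicle shares 4.22 and 2.12. Without the longest gene-free stretches 39.2% of ATF3 peaks were shared.

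The start difference was 3.82 points within 500 bp of a start, 3.61 with strand-aware starts alone and -6.92 at a -log10 p of at least 100, the last pair chosen after seeing the data. ATF3 peaks with JUNB minus ATF3 alone turned to -1.75 at a fold of 6, -2.90 among the 20000 strongest and -4.85 at a -log10 p of 100, and JUNB peaks with ATF3 minus JUNB alone to 0.714 within 500 bp. The H3K27ac differences were 10.0, 18.8 and 6.29 with the summit inside the H3K27ac peak, 14.0, 32.8 and 19.8 with vehicle H3K27ac, 14.1, 33.8 and 21 with H3K27ac at a -log10 q of 5, and 34.7, 27.3 and 11.3 at a -log10 p of 100, an added alternative.

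Genes within 10 kb of a shared, ATF3-alone and JUNB-alone site fell to 3007, 6470 and 5794 for the 20000 strongest peaks, those with a shared and a JUNB-alone site to 4283 and 6858 at a fold of 6, and those with a shared site rose to 13536 within 50 kb. Stress response genes with a shared and a JUNB-alone site within 10 kb numbered 22 and 18, against 12 and 9 at a fold of 6, 10 and 8 among the 20000 strongest, and 11 with JUNB alone at a -log10 q of 5. ATF3 alone minus JUNB alone was -9.93 points for the AP-1 element at a -log10 q of 5, and among the 20000 strongest -39.6 for it, 17.2 for the cyclic AMP response element and 8.64 for the composite.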
